A study of Mus musculus with 15 samples.

Results

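The subject here is the set of long noncoding RNA (lncRNA) genes that were abundant in mouse cerebellar cultures, and how their levels stood without interleukin 12 (IL-12) and with IL-12 at 30 or 100 ng/ml. The members were chosen by their measured level, as all genes typed lncRNA in the GENCODE annotation whose mean over the 15 cultures was at least 10 CPM, counts of reads scaled to library depth. This gave 95 of the 9712 lncRNA genes in the files, out of 35142 genes in all. Since the rule used the mean over all cultures, the levels are a description. No difference between groups was part of the rule. Just inside the limit were *A830082K12Rik* at 10.33 CPM and *2010001A14Rik* at 10.30 CPM, and just outside were *Zfas1* at 9.98 CPM and *Snhg3* at 9.84 CPM. Of the 95 members, 35 carry a conventional gene name and 60 carry a systematic one (Gm and a number, a name ending in Rik, or a clone accession). All 95 passed the filter on low counts and were tested.

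The cells came from the cerebella of C57BL/6 wild-type mouse pups killed between postnatal days 0 and 4 and were kept for 14 days in vitro. Each group had 5 cultures: unstimulated, IL-12 at 30 ng/ml and IL-12 at 100 ng/ml, given as murine recombinant IL-12p70 over the 18 h before RNA was taken. The labels do not say whether the replicates were separate preparations, so the p-values measure only the spread between these cultures. Estimated reads per library ranged from 25746096 to 38435850, and the members together took 0.555% to 0.804% of them. The share was 0.611 ± 0.0648% (SD, n = 5) unstimulated, 0.633 ± 0.104% with 30 ng/ml and 0.647 ± 0.0841% with 100 ng/ml. The groups overlapped. The cultures were labelled as neurons, yet summed TPM, a level per transcript length, of 9 neuronal markers in the unstimulated cultures ran from 162 to 218. The same sums were 4011 to 5527 TPM for 8 microglial, 3731 to 4184 TPM for 7 astrocyte and 5438 to 8155 TPM for 8 oligodendrocyte lineage markers. The granule neuron genes *Rbfox3* and *Gabra6* averaged 3.42 and 1.98 TPM. In such bulk RNA, fewer cells of a type and less RNA per cell cannot be told apart.

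LncRNAs are long transcripts with no recognised protein product. Some stay in the nucleus, where *Malat1* collects in speckles, *Neat1* builds paraspeckles and *Xist* coats the inactive X chromosome. Others act in the cytoplasm, such as *Norad*, which holds Pumilio proteins, or serve as host transcripts from which microRNAs (miRNAs) and small nucleolar RNAs (snoRNAs) are cut. In the cerebellum and other brain tissue *Meg3*, *Rian*, *Miat* and *Snhg14* are known as neuronal transcripts, and the miR-9 hosts as transcripts of neural progenitors and glia.

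Sequences of 3 kinds show what these transcripts carry. The first is the miRNA cargo of the host genes, given as mature RNA from RefSeq (GRCm38.p6) with the seed, bases 2 to 8, in capitals. *Gm3764*, *Mir9-2hg* and *Mir9-3hg* each hold a gene for the same miR-9 pair, so they share both seeds. *Mir100hg* holds miR-100 and miR-125b, and *Mir22hg* and *H19* hold miR-22 and miR-675.
miR-9-5p: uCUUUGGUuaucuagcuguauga
miR-9-3p: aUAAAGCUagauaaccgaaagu
miR-100-5p: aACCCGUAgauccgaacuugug
miR-125b-5p: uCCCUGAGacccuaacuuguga
miR-22-3p: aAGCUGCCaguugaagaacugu
miR-675-5p: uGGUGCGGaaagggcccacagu

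The second is the Pumilio motif of *Norad*, spelled TGTANATA and searched on the transcript strand. The main *Norad* transcript held 11 matches, or 2.22 per kb, while 68 of the 95 members held none in their main transcript. Only *Kcnq1ot1* held more, with 18 matches, at 0.193 per kb. A match is a run of letters and not a shown binding site. The following stretches of 30 bases are from GRCm39 (minus strand), with the matching letters in capitals. The first of them lies at chr2:156233735-156233764 and the other at chr2:156233359-156233388.
Norad, match 2: agtaaacatgcTGTAAATAcctttttgtta
Norad, match 4: actgactgctgTGTATATAgtggacaacag

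The third is the miR-7 site of *Oip5os1*, also known as Cyrano, a transcript known for its extended pairing to miR-7. Its main transcript held 2 matches to the complement of the miR-7a seed. The one at chr2:119432613-119432642 (GRCm39, plus strand) also held, upstream of the seed match, the 13 letters that pair with bases 11 to 23 of the miRNA. The one at chr2:119430423-119430452 had no such upstream run. Capitals mark the seed in the miRNA and the pairing letters in the sites.
miR-7a-5p: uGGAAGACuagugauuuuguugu
Oip5os1, match 2: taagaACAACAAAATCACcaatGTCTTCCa
Oip5os1, match 1: gacttcaggttttttttttaatGTCTTCCa

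Levels between genes were set side by side per transcript length, in TPM, as mean ± SD over the 15 cultures. *Malat1* stood first among the 95 members with 361 ± 125 TPM. *Gas5*, a snoRNA host, had 221 ± 21.1 TPM and the miR-9 host *Gm3764* 116 ± 20.5 TPM. *Norad*, *Meg3* and *Neat1* lay next to each other at 98.7 ± 6.804, 98.4 ± 20.03 and 97.4 ± 17.9 TPM, which did not differ beyond their spread. *Rian*, a brain transcript of the same imprinted cluster as *Meg3*, had 64.9 ± 6.54 TPM, *Sap30bpos* 60.2 ± 5.49, *Firre* 53.2 ± 6.398, *Xist* 47.4 ± 8.05, *Oip5os1* 44.2 ± 5.199 and *H19* 44.1 ± 10.97 TPM. The antisense transcript *Kcnq1ot1* was last, at 0.204 ± 0.0828 TPM over a transcript of 93092 bases. Among systematic names *Gm48275* had 290.0 ± 67.3 TPM and *Gm43305* 255 ± 34.2 TPM, next to *Malat1* at the head of all members. The libraries were enriched for RNA with a poly(A) tail, so these are levels in that RNA, *Malat1* included. They and their order also rest on the transcript lengths in the files, which for some genes differ from the annotation. The main transcript of *Gm3764* has 858 bases in the files and 2968 in the annotation, that of *Gas5* 502 and 767, and that of *Malat1* 6983 and 7886.

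**Figure D1:**
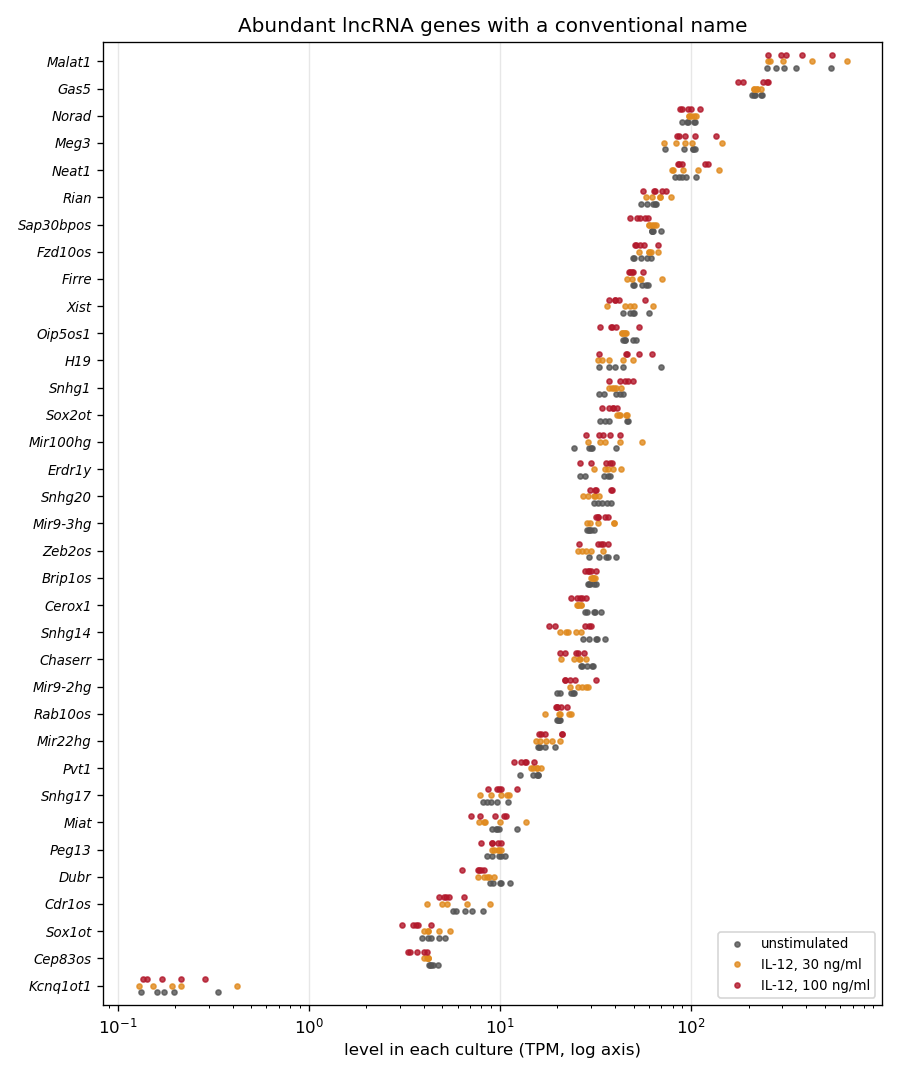
Level in TPM (log axis) of the 35 conventionally named members in each of the 15 cultures, coloured by group, with genes ordered by mean level. *Malat1* averages 361 TPM at the top and *Kcnq1ot1* 0.204 TPM at the bottom, and for most genes the points of the 3 groups lie over each other.

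In the comparison of 100 ng/ml with unstimulated cultures, 17 of the 95 members changed at an edgeR adjusted p under 0.05, against 9.77% of all 15360 genes tested. There 11 members rose and 6 fell, where 5.83% of all genes rose and 3.93% fell. Several of the 11 share sequence with each other, as given below, so their estimates are not all separate. With 30 ng/ml 8 of 95 changed, 4 in each direction, against 7.87% of all genes (4.16% up and 3.71% down). Between the doses 3 members were higher with 100 than with 30 ng/ml and none was lower, against 0.579% of all genes (0.501% up, 0.0781% down). The count of 0 lower members was 1 with DESeq2, and 22 of the 95 had an unadjusted edgeR p under 0.05 in either direction. The share of all genes with such an unadjusted p was not counted, so counts of this kind have no background here. The median log2 fold change of the members was −0.01 with 100 ng/ml, −0.01 with 30 ng/ml and −0.02 between the doses. Over all genes tested it was −0.0038, 0.00013 and −0.0036. The changes were small, with 92 of 95 members within 0.5 on the log2 scale of unstimulated cultures at 100 ng/ml and 94 of 95 at 30 ng/ml. In all, 21 members changed in at least 1 comparison. Of these 3 rose at both doses (*Gm35040*, *Gm21986* and *Gm7932*) and 1 fell at both (*Cerox1*).

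Split by name, 4 of the 35 conventionally named members (11.4%) changed with 100 ng/ml, against 9.77% of all genes, and all 4 fell. They were *Sap30bpos*, *Cerox1*, *Cep83os* and *Dubr*. Of the 60 systematic names 11 rose and 2 fell (21.7% in all), where 5.83% of all genes rose and 3.93% fell. When the fit held just the unstimulated and 100 ng/ml cultures, 8 members rose and 2 fell in all, and *Sap30bpos*, *Cerox1* and *Dubr* were no longer called. With 30 ng/ml 1 conventional name changed, *Cerox1* (2.86% of them), and 7 systematic ones (11.7%), against 7.87% of all genes. Groups that did not overlap at all were seen for 10 members with 100 ng/ml, 14 with 30 ng/ml and 8 between the doses, where 7.17%, 8.89% and 2.97% of all genes had such groups. With 30 ng/ml 4 of 8 microglial markers fell and 3 of 7 astrocyte markers rose, where 3.71% of all genes fell and 4.16% rose. The sum of the microglial markers ran from 3212 to 4003 TPM there, and from 3778 to 5050 TPM with 100 ng/ml. With 100 ng/ml no microglial marker passed the test, and of the astrocyte markers 1 rose and 1 fell. There 2 of 5 fibroblast and meningeal markers rose and 0 fell, and 2 of 8 oligodendrocyte lineage markers fell and 0 rose. Of the 9 neuronal markers 1 rose and 1 fell with 100 ng/ml, and 1 rose and 2 fell with 30 ng/ml. Their median log2 fold change was −0.40 with 100 ng/ml and −0.51 with 30 ng/ml. Of 2 endothelial markers tested 1 fell at each dose, and 1 oligodendrocyte lineage marker fell with 30 ng/ml. The fibroblast and meningeal sum ran from 263 to 340 TPM unstimulated and from 337 to 434 TPM with 100 ng/ml. The part of these marker changes in the members' changes was not tested.

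**Figure D2:**
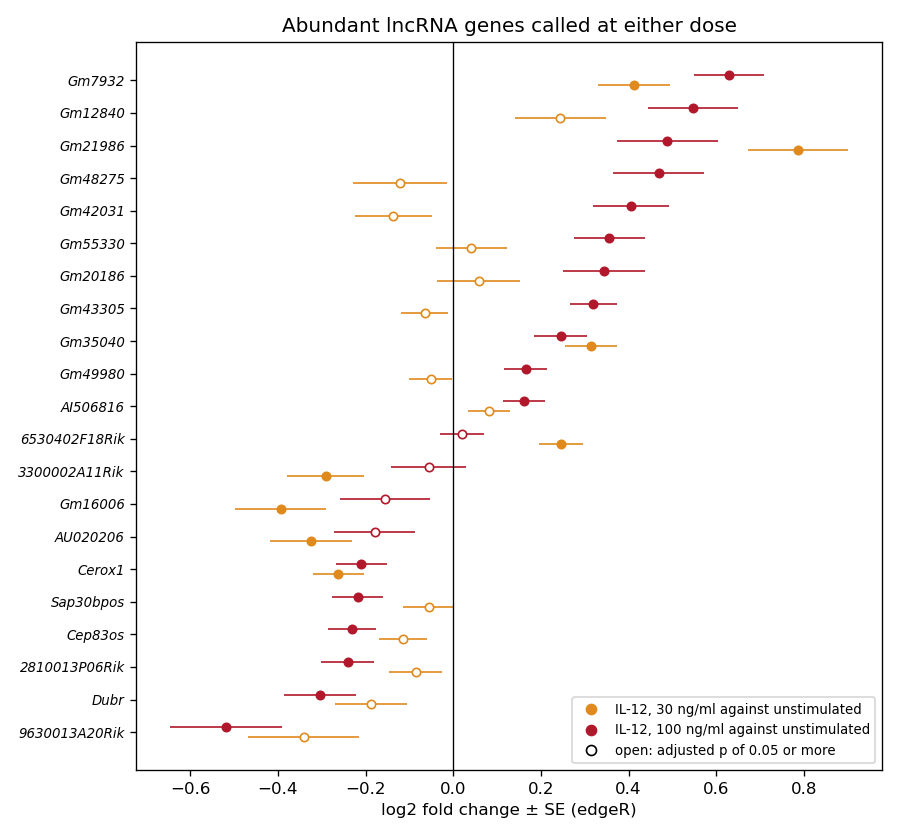
Log2 fold change ± SE (edgeR) against unstimulated cultures for the 21 members called in any comparison, with orange for 30 ng/ml, red for 100 ng/ml and open circles for an adjusted p of 0.05 or more. *Gm7932*, *Gm21986* and *Gm35040* lie right of 0 with filled points at both doses and *Cerox1* left of 0, while *Gm43305*, *Gm42031* and *Gm48275* have filled points with 100 ng/ml and points just below 0 with 30 ng/ml.

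None of the 7 nuclear-retained lncRNAs on the list (*Malat1*, *Neat1*, *Xist*, *Miat*, *Kcnq1ot1*, *Meg3* and *Firre*) passed the edgeR test in any comparison. None of them had an unadjusted p under 0.05 or a DESeq2 call either, and their median log2 fold change was −0.05 with 100 and −0.01 with 30 ng/ml. *Malat1* (ENSMUSG00000092341, chr19:5845717-5853602, minus strand, GRCm39 here and below) is spread over nuclear speckles. *Malat1* had 2300.5, 1295, 1188, 1471 and 1539 CPM in the 5 unstimulated cultures. It had 1874, 1367, 1150.3, 1166 and 2891 CPM with 30 ng/ml and 1858, 2495, 1415, 1196 and 1360.5 CPM with 100 ng/ml. One culture of every group stood well above the rest, and the groups overlapped. The log2 fold change was 0.12 ± 0.25 (SE) with 30 ng/ml and 0.09 ± 0.25 with 100 ng/ml, with edgeR adjusted p of 0.836 and 0.854.

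*Neat1* (ENSMUSG00000092274, chr19:5874736-5897132, minus strand) is the scaffold of paraspeckles and its short and long isoforms share the 5′ end. Without IL-12 the cultures read 220.1, 174, 182, 199.96 and 180.3 CPM of *Neat1*. The values were 223, 188, 165, 167 and 294 CPM with 30 ng/ml, and with 100 ng/ml 276, 250.2, 183, 182 and 192 CPM. The groups overlapped, with changes of 0.12 ± 0.15 and 0.18 ± 0.15 (edgeR adjusted p 0.705 and 0.479). The short isoform of 3004 bases took 82.5% of the gene's estimated reads and the long one of 20771 bases 15.1%. The libraries were enriched for RNA with a poly(A) tail, so these are shares of the enriched RNA. How well each isoform was captured was not tested. In TPM the short isoform averaged 80.4 ± 7.94, 89.5 ± 22.5 and 92.2 ± 17.9 in the unstimulated, 30 and 100 ng/ml cultures, and the long one 2.03 ± 0.373, 2.36 ± 0.997 and 2.29 ± 0.556 (SD, n = 5). For each isoform the differences between groups lay within the spread among cultures.

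For *Firre* (ENSMUSG00000085396, chrX:49644621-49724249, minus strand), a nuclear transcript known from contacts between chromosomes, the cultures averaged 88.5 ± 4.46 CPM unstimulated, 85.1 ± 11.1 with 30 and 80.4 ± 5.58 with 100 ng/ml (SD, n = 5). Its changes of −0.06 ± 0.07 and −0.14 ± 0.07 did not pass the test (edgeR adjusted p 0.699 and 0.229). *Miat*, a nuclear transcript of neurons, averaged 53.9 ± 7.37, 51.9 ± 14.2 and 49.2 ± 7.697 CPM, and *Kcnq1ot1*, which silences its imprinted neighbours on the paternal chromosome, 11.99 ± 4.31, 13.2 ± 6.74 and 11.7 ± 3.79 CPM.

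*Xist* (ENSMUSG00000086503, chrX:102503972-102537573, minus strand) silences one X chromosome in female cells. The summed level of 4 Y-linked genes in the cultures ran from 44.0 to 59.5 TPM, so RNA of both sexes was present. Unstimulated cultures gave 485, 355, 337, 348 and 411 CPM for *Xist*. At 30 ng/ml the level was 395, 371, 352, 312 and 494 CPM, and at 100 ng/ml it was 281, 511, 325, 318 and 303 CPM. The change was −0.01 ± 0.15 and −0.15 ± 0.15 (edgeR adjusted p 0.984 and 0.557). None of the Y-linked genes passed the test either. Of the other genes of the X inactivation centre, *Ftx* (7.16 CPM), *Jpx* (2.88 CPM) and *Tsix* (0.0671 CPM) were below the limit of the set.

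The cultures of one group differed more in some members than the groups did. In *Malat1* unstimulated replicate 1, 30 ng/ml replicate 5 and 100 ng/ml replicate 2 were the highest of their groups, at 1.66, 2.28 and 1.80 times the median of the other 4. The same 3 cultures were the highest of their groups for 13 of the 95 members, against 3.4% of all genes. The 13 include *Malat1*, by which the cultures were picked. Some of them also share sequence: *Gm48765* and *Gm47031* have 75.6% and 73.1% of their stretches of 31 bases in common with *Gm47578*. *Gm47761* has 59.1% in common with *Gm42047*, so the 13 are not independent of each other. For *Kcnq1ot1* the ratios were 1.87, 2.40 and 1.82, for *Xist* 1.38, 1.37 and 1.65, and for *Mir100hg* 1.36, 1.61 and 1.30. These libraries had 38435850, 27941113 and 25746096 reads, so the deepest and the shallowest of all 15 were among them. A fit without them called 19 members with 100 ng/ml, 7 with 30 ng/ml and 2 between the doses. The calls of *Cerox1* and *Gm49980* with 100 ng/ml, *AU020206* and *3300002A11Rik* with 30 ng/ml and *Gm48275* between the doses were lost there. The fit also had fewer cultures in each group, so the part of these 3 cultures in the calls cannot be read from the counts. The share of all genes called in that fit is not given here. That fit was added after the data were seen. The pooled within-group SD on the log2 scale was 0.136 for the median member, from 0.0407 to 0.536, and 0.0936 for the median of 10847 genes at 10 CPM or more. These sets were not matched by level, so no trait of lncRNA genes is read from the difference. Among the members the SD was widest in *Gm48765*, *Kcnq1ot1*, *Malat1*, *Gm47578* and *H19*.

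**Figure D3:**
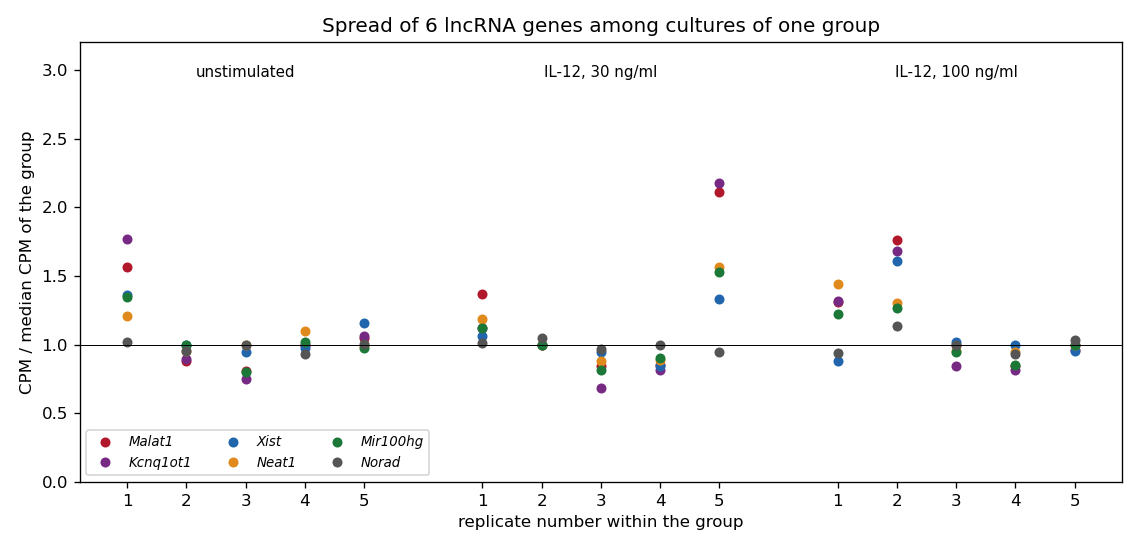
CPM of 6 members in each culture divided by the median of its group, by replicate number, for the unstimulated, 30 and 100 ng/ml groups. In unstimulated replicate 1, 30 ng/ml replicate 5 and 100 ng/ml replicate 2 *Malat1* and *Kcnq1ot1* stand farthest above the line at 1, while *Norad* stays near it in all 15 cultures.

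*Norad* (ENSMUSG00000102869, chr2:156229977-156234978, minus strand), whose Pumilio motifs are printed above, was among the steadiest members. In unstimulated cultures *Norad* stood at 313, 295, 309, 287 and 311 CPM. Cultures with 30 ng/ml had 313, 323, 299, 309 and 291 CPM and those with 100 ng/ml 282, 340.3, 300.4, 281 and 309.97 CPM. The change was 0.02 ± 0.05 with 30 ng/ml and −0.0012 ± 0.05 with 100 ng/ml (edgeR adjusted p 0.871 and 0.992). *Brip1os* (ENSMUSG00000085208, chr11:86092109-86195269, plus strand), which starts back to back with the helicase gene *Brip1* and overlaps exons of *Ints2* and *Med13* on the other strand, was as even. It averaged 82.4 ± 1.62, 82.7 ± 2.29 and 82.4 ± 2.99 CPM in the unstimulated, 30 and 100 ng/ml groups (SD, n = 5).

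*Oip5os1* (ENSMUSG00000085438, chr2:119424396-119437983, plus strand), with the miR-7 site shown above, was lower in 9 of 10 treated cultures than in any unstimulated one. The level of *Oip5os1* was 178, 158, 168, 163 and 169.7 CPM in the unstimulated cultures. Treated cultures had 153, 155, 153, 147 and 149 CPM at 30 ng/ml and 124, 198, 133, 143 and 147 CPM at 100 ng/ml. The groups did not overlap at 30 ng/ml, while at 100 ng/ml replicate 2 was the highest of all 15 cultures. The changes of −0.14 ± 0.09 and −0.17 ± 0.09 did not pass the test (edgeR adjusted p 0.354 and 0.238). Without 100 ng/ml replicate 2 they were −0.14 and −0.29 and both passed it. This is 1 of 15 fits that left out a culture, and it is given because it left out the highest one. It called more members in general, 23 with 100 ng/ml and 12 with 30 ng/ml, where the main fit called 17 and 8. *Oip5os1* is therefore not counted as changed.

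Of 9 imprinted lncRNAs on the list, 6 were members. None of the 8 tested passed the edgeR test in any comparison or had an unadjusted p under 0.05, none of the 6 members was called by DESeq2, and the medians were −0.02 with 100 and −0.03 with 30 ng/ml. *Meg3*, expressed from the maternal chromosome and the host of miR-770, averaged 93.4 ± 6.76 CPM unstimulated, 91.6 ± 21.97 with 30 and 94.8 ± 19.8 with 100 ng/ml. *Rian*, a snoRNA host downstream of it, averaged 66.8 ± 3.72, 73.4 ± 4.48 and 72.9 ± 8.69 CPM, with changes of 0.14 ± 0.07 and 0.12 ± 0.07 (edgeR adjusted p 0.257 and 0.273). *H19*, the growth-restraining host of miR-675, had 1 unstimulated culture at 99.3 CPM, where the other 4 had 47.7 to 59.2 CPM. The remaining members of the list were *Kcnq1ot1*, *Peg13* and *Snhg14*, the last being the host of a snoRNA array that in neurons runs on over *Ube3a*. *Snhg14* averaged 17.6 ± 1.505, 16.1 ± 2.98 and 14.9 ± 4.54 CPM (change −0.25 ± 0.16 with 100 ng/ml, edgeR adjusted p 0.329). *Airn* and *Mirg* were tested but lay below the limit, at 2.51 and 1.56 CPM.

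None of the 7 tested neuron-rich lncRNAs, 5 progenitor or astrocyte lncRNAs and 8 stress or immune lncRNAs passed the edgeR test at either dose. An unadjusted p under 0.05 was seen for 0, 1 (*Mir9-3hg*) and 1 (*Pvt1*) of them with 100 ng/ml and for 0 of each list with 30 ng/ml, and DESeq2 called no member of these lists. The medians with 100 ng/ml were 0.02, 0.03 and 0.09. Among the stress and immune genes, *Gas5*, which builds up when growth stops, averaged 64.1 ± 3.62, 64.5 ± 1.804 and 66.2 ± 11.6 CPM. *Pvt1*, the neighbour of *Myc*, had 12.2 ± 0.684 CPM unstimulated and 10.7 ± 0.809 with 100 ng/ml (change −0.19 ± 0.06, edgeR adjusted p 0.06). *Mir155hg*, the host of an inflammatory miRNA, stood at 0.317 CPM and was not tested.

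Small RNA genes lie within 22 members, snoRNA or scaRNA genes in 10 and miRNA genes in 14. Of the snoRNA hosts *AI506816* rose with 100 ng/ml, and of the miRNA hosts *AU020206* fell with 30 ng/ml by the edgeR test. DESeq2 also called *Mir9-2hg* there. An unadjusted edgeR p under 0.05 was seen for 4 of the 14 miRNA hosts at each dose, and for 2 of the 10 snoRNA hosts with 100 and 1 with 30 ng/ml. The share of all genes with such a p was not counted, so these counts do not set the hosts apart. The miRNA hosts had a median of 0.11 with 100 and 0.07 with 30 ng/ml, and the snoRNA hosts 0.08 and 0.01. The libraries read the host transcript and not the small RNA. The 3 miR-9 hosts were above their unstimulated mean in both treated groups, and none passed the edgeR test. For *Gm3764*, the unstimulated cultures showed 44.97, 43.8, 38.1, 41.5 and 37.9 CPM. Under 30 ng/ml it was 53.1, 44.6, 40.4, 39.9 and 62.8 CPM and under 100 ng/ml 63.03, 47.5, 50.6, 42.8 and 45.2 CPM. The log2 fold change of *Gm3764* was 0.22 ± 0.12 with 30 and 0.27 ± 0.12 with 100 ng/ml (edgeR adjusted p 0.285 and 0.157), and the groups overlapped. For *Mir9-2hg* it was 0.25 ± 0.08 and 0.19 ± 0.08 (0.0763 and 0.166), and for *Mir9-3hg* 0.09 ± 0.07 and 0.17 ± 0.07 (0.514 and 0.144). *Mir100hg* averaged 39.4 ± 7.603, 50.04 ± 13.0 and 46.6 ± 7.95 CPM, with changes of 0.34 ± 0.16 and 0.24 ± 0.16 that did not pass (edgeR adjusted p 0.207 and 0.371).

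*Cerox1* (ENSMUSG00000091475, chr17:25789745-25794052, plus strand) was lower at both doses. It is known as a cytoplasmic lncRNA that raises the levels of mitochondrial complex I subunits, and it starts 19 bases from the transcription factor gene *Sox8* on the other strand. *Cerox1* had 22.5, 21.2, 20.02, 19.4 and 20.99 CPM in the 5 unstimulated cultures. It had 17.5, 16.9, 17.9, 17.5 and 17.1 CPM with 30 ng/ml and 19.02, 15.5, 18.5, 17.7 and 19.2 CPM with 100 ng/ml. Every treated culture lay below every unstimulated one. It fell by 0.26 ± 0.06 on the log2 scale with 30 ng/ml (edgeR adjusted p 0.0103) and by 0.21 ± 0.06 with 100 ng/ml (adjusted p 0.0296). With 100 ng/ml the call rested on single cultures: it was lost on leaving out unstimulated replicate 1, 2 or 5 or 100 ng/ml replicate 3 or 4. It was also lost with no filter on low counts and in a fit of just these 2 groups, and without the 3 cultures highest in *Malat1* the value was −0.13 (adjusted p 0.101). *Sox8* itself had 0.08 ± 0.06 and 0.00 ± 0.06 (adjusted p 0.51 and 0.99).

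*Cep83os* (ENSMUSG00000097164, chr10:94506887-94525578, minus strand) is antisense to the centrosome gene *Cep83*, with which it shares 12 exonic bases. Without IL-12 the cultures read 18.4, 18.9, 19.1, 18.9 and 19.8 CPM of *Cep83os*. The values were 17.6, 17.6, 17.8, 18.04 and 16.8 CPM with 30 ng/ml, and with 100 ng/ml 14.8, 18.05, 14.9, 16.1 and 17.2 CPM. All cultures of both treated groups lay below the unstimulated ones. It fell by 0.23 ± 0.05 with 100 ng/ml (edgeR adjusted p 0.0136), and the value with 30 ng/ml was −0.11 ± 0.05 (0.226). *Cep83* had −0.01 ± 0.05 with 100 ng/ml (adjusted p 0.96).

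*Dubr* (ENSMUSG00000022639, chr16:50530719-50555103, minus strand) is known from muscle cell differentiation. Unstimulated cultures gave 16.1, 12.9, 13.2, 14.2 and 14.04 CPM for *Dubr*. At 30 ng/ml the level was 12.1, 12.5, 11.2, 13.1 and 13.1 CPM, and at 100 ng/ml it was 9.29, 12.9, 12.1, 11.7 and 11.3 CPM. With 100 ng/ml the highest culture stood just under the lowest unstimulated one. It fell by 0.30 ± 0.08 there (edgeR adjusted p 0.0271), against −0.19 ± 0.08 with 30 ng/ml (0.18). The call was lost without unstimulated replicate 1 or 5 or 100 ng/ml replicate 1 or 5, in a fit of just these 2 groups, and with the replicate numbers as a block. Over all 15 fits that left out 1 culture the value ran from −0.35 to −0.24.

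*Sap30bpos* (ENSMUSG00000087064, chr11:115837276-115842931, minus strand) lies on the other strand within the span of *Sap30bp*, with no exon in common. In unstimulated cultures *Sap30bpos* stood at 83.5, 95.6, 88.2, 88.9 and 84.7 CPM. Cultures with 30 ng/ml had 83.6, 86.1, 82.7, 83.3 and 88.3 CPM and those with 100 ng/ml 86.7, 71.8, 67.3, 73.3 and 79.8 CPM. One culture with 100 ng/ml lay within the unstimulated range and 4 below it. It fell by 0.22 ± 0.06 with 100 ng/ml (edgeR adjusted p 0.0251), while *Sap30bp* had 0.12 ± 0.04 (0.064). Without unstimulated replicate 2 or 100 ng/ml replicate 3 or 4 the call was lost, and also in a fit of just these 2 groups.

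*9630013A20Rik* and *2810013P06Rik* also fell with 100 ng/ml, and were named after their values were seen. *9630013A20Rik* (ENSMUSG00000115529, chr14:84696079-84713864, minus strand), inside the span of the protocadherin gene *Pcdh17* on the other strand, averaged 13.5 ± 2.16 CPM unstimulated and 9.49 ± 1.63 with 100 ng/ml. Its change of −0.52 ± 0.13 (edgeR adjusted p 0.016) stood beside −0.39 ± 0.10 for *Pcdh17* (0.017), which fell too. *2810013P06Rik*, which starts beside *Ankrd11*, changed by −0.24 ± 0.06 (0.0193).

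*Gm7932* (ENSMUSG00000108084, chr6:48837235-48843049, plus strand) rose at both doses, and lies 6781 bases from *Aoc1*, the gene of the histamine-degrading diamine oxidase. The level of *Gm7932* was 7.304, 9.06, 8.86, 8.38 and 8.24 CPM in the unstimulated cultures. Treated cultures had 13.2, 10.9, 10.9, 10.9 and 9.61 CPM at 30 ng/ml and 13.7, 13.1, 12.03, 13.3 and 12.4 CPM at 100 ng/ml. Every treated culture lay above every unstimulated one. The rise was 0.41 ± 0.08 with 30 ng/ml (edgeR adjusted p 0.00565) and 0.63 ± 0.08 with 100 ng/ml (1.22e-04), the smallest p of any member. *Aoc1* rose by 0.66 ± 0.09 and 1.10 ± 0.09 (4.9e-04 and 7.0e-07). The difference between the doses was 0.22 ± 0.08 for *Gm7932*, which did not pass (0.266), and 0.44 ± 0.09 for *Aoc1*, which did (0.024).

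*Gm35040* (ENSMUSG00000108616, chr7:79185760-79209781, plus strand) starts downstream of the miR-9 host *Mir9-3hg* on the same strand. For *Gm35040*, the unstimulated cultures showed 33.2, 37.8, 33.1, 31.2 and 34.3 CPM. Under 30 ng/ml it was 46.2, 40.6, 40.2, 40.9 and 42.8 CPM and under 100 ng/ml 37.9, 39.5, 44.8, 37.5 and 41.2 CPM. With 30 ng/ml all cultures lay above the unstimulated ones, and with 100 ng/ml 1 of 5 lay just within their range. It rose by 0.31 ± 0.06 (edgeR adjusted p 0.00453) and by 0.25 ± 0.06 (0.0158).

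*Gm21986* (ENSMUSG00000096056, chrX:100339445-100364954, plus strand) runs on the strand of *Nlgn3* and *Med12* and shares exons with both, and 99.5% of its stretches of 31 bases also occur in transcripts of other genes. Its reads are therefore divided by the estimate between these genes. *Gm21986* had 10.04, 8.98, 11.4, 7.23 and 8.47 CPM in the 5 unstimulated cultures. It had 15.9, 12.6, 18.2, 17.4 and 15.7 CPM with 30 ng/ml and 14.1, 11.8, 12.1, 12.2 and 14.7 CPM with 100 ng/ml. It rose by 0.79 ± 0.11 (edgeR adjusted p 6.32e-04) and 0.49 ± 0.11 (0.0127), and the treated groups did not overlap the unstimulated one. *Nlgn3*, a postsynaptic adhesion gene, had 0.11 ± 0.07 and 0.01 ± 0.07 (0.38 and 0.94).

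**Figure D4:**
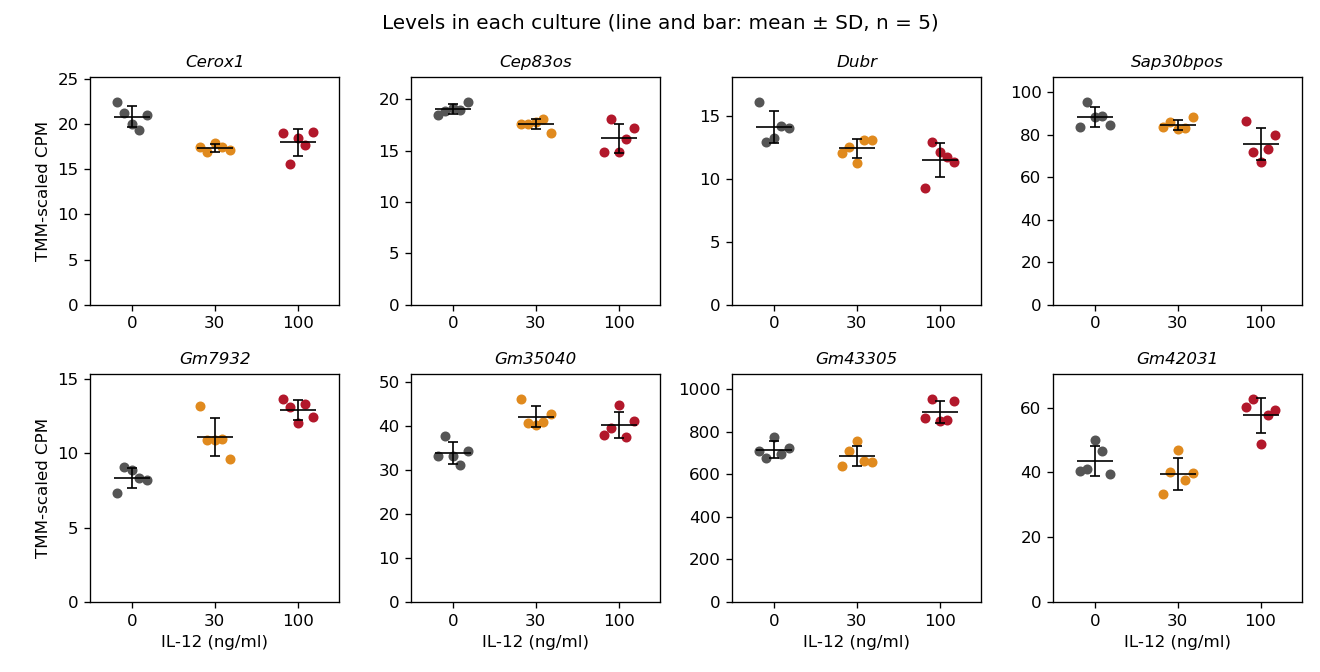
TMM-scaled CPM of 8 members in each culture against the IL-12 dose, with the group mean ± SD (n = 5) in black and axes from 0. All treated cultures lie below the unstimulated ones for *Cerox1* and *Cep83os* and above them for *Gm7932*, and *Gm43305* stands higher with 100 ng/ml than in both other groups.

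RefSeq promoter windows (GRCm38.p6, 250 bases before to 50 after the start) were held for 57 members and for 12 of the 21 that changed. They were searched for TTCNNNGAA, the letters of the STAT element, through whose family IL-12 signals, and for TGANTCA, the letters of the AP-1 element. Both read alike on either strand. Of all 32851 windows 8.30% held the first and 7.81% the second. Of the 12, *Gm7932* and *Dubr* held TTCNNNGAA once each, and none held TGANTCA. The windows of these and of *Cerox1*, which changed at both doses, are given with matches in capitals. For *Cerox1*, which has a second start close by, the first window is shown. It had 65.3% G and C and 22 CG pairs, where the median window had 52.7% and 7.
Gm7932, chr6:48860079-48860378, plus strand: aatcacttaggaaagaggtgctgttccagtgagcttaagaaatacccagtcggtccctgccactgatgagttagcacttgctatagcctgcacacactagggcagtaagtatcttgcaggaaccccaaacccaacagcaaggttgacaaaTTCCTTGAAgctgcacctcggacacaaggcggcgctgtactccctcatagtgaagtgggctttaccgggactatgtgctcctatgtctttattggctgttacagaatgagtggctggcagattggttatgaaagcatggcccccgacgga
Dubr, chr16:50732724-50733023, minus strand: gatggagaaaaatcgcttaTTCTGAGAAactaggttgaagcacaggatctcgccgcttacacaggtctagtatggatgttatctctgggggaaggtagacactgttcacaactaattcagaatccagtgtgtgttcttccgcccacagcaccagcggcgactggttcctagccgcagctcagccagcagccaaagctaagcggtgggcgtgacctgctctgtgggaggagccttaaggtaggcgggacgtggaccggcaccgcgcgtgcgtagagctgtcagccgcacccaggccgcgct
Cerox1, chr17:25570561-25570860, plus strand: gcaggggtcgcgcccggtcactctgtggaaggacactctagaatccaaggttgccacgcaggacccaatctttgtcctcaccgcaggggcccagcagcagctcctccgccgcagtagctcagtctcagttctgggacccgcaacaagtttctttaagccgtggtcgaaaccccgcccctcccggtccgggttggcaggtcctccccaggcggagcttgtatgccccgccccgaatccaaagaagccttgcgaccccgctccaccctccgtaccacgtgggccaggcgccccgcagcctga

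There were 3 members that stood higher with 100 ng/ml than both without IL-12 and with 30 ng/ml. *Gm43305* (ENSMUSG00000105703, chr14:54529898-54534949, minus strand) stands second among the members in CPM. Without IL-12 the cultures read 708, 677, 778, 696 and 726 CPM of *Gm43305*. The values were 639.99, 708, 754, 663 and 660.4 CPM with 30 ng/ml, and with 100 ng/ml 867, 955, 849, 857 and 946 CPM. Every culture with 100 ng/ml lay above the 10 others. It rose by 0.32 ± 0.05 over unstimulated (edgeR adjusted p 0.0012) and by 0.38 ± 0.05 over 30 ng/ml (0.00188), with −0.06 ± 0.05 between 30 ng/ml and unstimulated (0.521).

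*Gm42031* (ENSMUSG00000110386, chr8:85852501-85858918, minus strand) followed the same order. Unstimulated cultures gave 40.4, 41.2, 50.1, 46.5 and 39.4 CPM for *Gm42031*. At 30 ng/ml the level was 33.3, 40.3, 46.97, 37.6 and 39.9 CPM, and at 100 ng/ml it was 60.1, 62.7, 48.7, 57.6 and 59.2 CPM. It rose by 0.41 ± 0.09 over unstimulated (0.007, edgeR adjusted p) and by 0.54 ± 0.09 over 30 ng/ml (0.00502). *Gm48275* (ENSMUSG00000111202, chr10:50301140-50301426, minus strand), 287 bases in 1 exon, averaged 23.2 ± 2.14, 21.4 ± 2.79 and 32.2 ± 5.43 CPM, and rose by 0.47 ± 0.10 and 0.59 ± 0.10 (0.00906 and 0.0111).

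These 3 genes lie on chromosomes 14, 8 and 10, but share sequence with other genes. In *Gm42031* 73.3% and in *Gm43305* 22.6% of the stretches of 31 bases occur in transcripts of other genes as well, and each shares most with the other. Of *Gm48275* 100% is shared, all of it with another lncRNA gene, *Gm42428*. Reads from shared stretches are divided between such genes by the estimate, so the values of *Gm42031* and *Gm43305* are not independent. Some members typed as noncoding hold long open frames. The main transcript of *Gm43305* holds an open frame of 561 codons from ATG to stop, and that of *AI506816* 645 codons, where the median member has 87. That of *Gm21986*, which rose at both doses and shares exons with *Nlgn3* and *Med12*, holds one of 845 codons. In all 11 of 95 members have a frame over 200 codons and 7 one over 300.

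*Gm55330*, *Gm20186* and *Gm12840*, where *Gm20186* is the gene that each of the other two shares most with, rose with 100 ng/ml. *Gm12840* (ENSMUSG00000086320, chr4:117557385-117558120, plus strand), within the span of *Eri3*, averaged 13.5 ± 1.41 CPM unstimulated, 16.03 ± 2.33 with 30 and 19.8 ± 2.62 with 100 ng/ml (change 0.55 ± 0.10, edgeR adjusted p 0.00289). *Gm55330* (ENSMUSG00000115801, chr14:44783650-44786942, minus strand) averaged 183 ± 22.01, 189 ± 8.21 and 235 ± 27.4 CPM (change 0.36 ± 0.08, adjusted p 0.0101). Its transcript has 93147 bases in the files and 3293 in the annotation used here. *Gm20186*, which starts 15 bases from *Lsm8* and was named after its values were seen, changed by 0.34 ± 0.09 (0.0289). Shared stretches made up 59.8%, 27.03% and 30.1% of *Gm12840*, *Gm55330* and *Gm20186*. For *Gm55330* they were counted on the annotated 3293 bases, so the share in the 93147 bases to which its reads were assigned is not known.

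The other 2 that rose, also named after their values were seen, were *AI506816* (0.16 ± 0.05, edgeR adjusted p 0.0413) and *Gm49980* (0.17 ± 0.05, 0.0394), and 21.3% and 52.5% of their stretches were shared. Both shared most with the same gene, *Gm42427*, at 7.47% of the stretches of *AI506816* and 36.9% of those of *Gm49980*. Neither call was firm. That of *AI506816* was lost in 9 of 15 fits without 1 culture and in 4 of 9 other settings, and that of *Gm49980* in 7 of 15 and in 5 of 9, DESeq2 included. Of the 11 members that rose with 100 ng/ml, 9 shared over 20% of their stretches with other genes, and none of the 6 that fell did. *Gm55330* is among the 9 by its annotated sequence alone. The medians were 30.1% and 0.637%, and 10.7% over the 78 members not called, of which 30 shared over 20%. Among the 46 members that shared at most 10%, 2 rose and 6 fell with 100 ng/ml, and 0 changed between the doses.

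**Figure D5:**
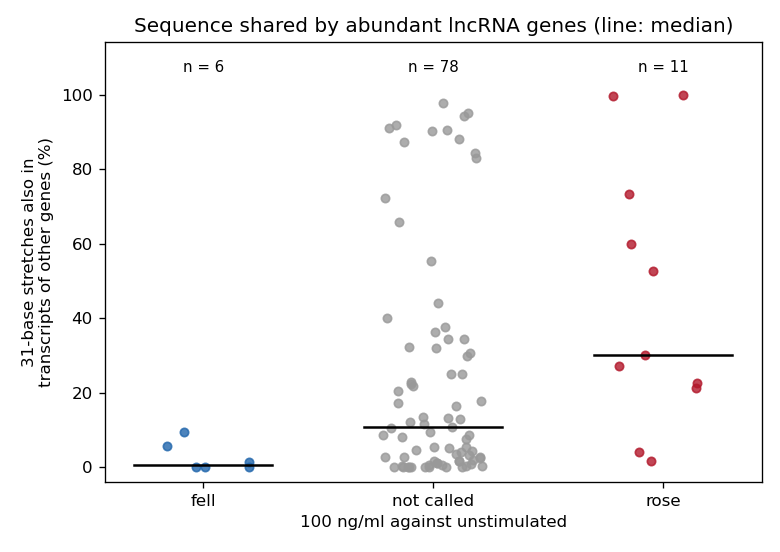
Percent of each member's 31-base stretches that also occur in transcripts of other genes, for members that fell, were not called or rose with 100 ng/ml, with a line at the median. All 6 members that fell lie under 10%, while 9 of 11 that rose lie over 20%. Stretches are those of annotated transcripts, which for *Gm55330* have 3293 bases against 93147 in the files.

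There were 4 members that changed with 30 ng/ml and not with 100 ng/ml by the test, and none of them passed the test between the doses. *6530402F18Rik* (ENSMUSG00000079499, chr2:29135119-29143018, minus strand), which overlaps the netrin gene *Ntng2* on its strand, was higher. In unstimulated cultures *6530402F18Rik* stood at 14.3, 14.3, 13.6, 13.7 and 13.4 CPM. Cultures with 30 ng/ml had 17.2, 15.2, 16.1, 16.3 and 17.5 CPM and those with 100 ng/ml 13.8, 14.6, 14.6, 13.97 and 13.5 CPM. It rose by 0.25 ± 0.05 with 30 ng/ml (edgeR adjusted p 0.00704), had 0.02 ± 0.05 with 100 ng/ml (0.848), and differed by −0.23 ± 0.05 between the doses (0.051). *Gm16006* (ENSMUSG00000090002, chr15:57571506-57572415, minus strand), within the span of *Zhx2*, averaged 13.8 ± 2.01 CPM unstimulated and 10.5 ± 1.01 with 30 ng/ml, and fell by 0.39 ± 0.10 (0.0265). Its call was lost in 6 of 15 fits without 1 culture.

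The last 2, named after their values were seen, also fell. *AU020206*, within the span of *Akap13*, changed by −0.32 ± 0.09 (edgeR adjusted p 0.0383), and *3300002A11Rik*, within the span of the forkhead gene *Foxn3*, by −0.29 ± 0.09 (0.0484). The call of *AU020206* was lost in 7 of 15 fits without 1 culture and in 2 of 9 other settings, and that of *3300002A11Rik* in 12 of 15 and in 4 of 9. *Foxn3* fell at both doses, by 0.23 ± 0.07 and 0.29 ± 0.07 (0.043 and 0.012). Of the members that changed, 13 with 100 ng/ml and 7 with 30 ng/ml had a tested protein-coding gene overlapping or next to them. That gene passed the test in 2 of the 13 (*Pcdh17* and *Aoc1*) and in 2 of the 7 (*Foxn3* and *Aoc1*), each time in the member's direction. Of all protein-coding genes tested, 10.1% passed it with 100 ng/ml and 8.24% with 30 ng/ml. The counts are small, *Aoc1* enters both, and the pair with *Foxn3* rests on the call of *3300002A11Rik*. No link between neighbours is drawn from them.

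Overlap with coding genes bears on all these values. Exons of 31 members overlap exons of a protein-coding gene, 25 of them on the opposite strand. The libraries were made with a stranded kit, but the use of strand in the estimates is not given in the sources used here, so it is not known whether reads of those 25 were kept apart from the coding gene. Of the 64 members with no such overlap, 15 (23.4%) changed with 100 ng/ml, 6 (9.4%) with 30 ng/ml and 3 (4.69%) between the doses. Over all 95 members the shares were 17.9%, 8.42% and 3.16%, and over all genes tested 9.77%, 7.87% and 0.579%.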

How the data were processed

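RNA of 15 mouse cerebellar cultures was sequenced, 5 per group, from libraries of a stranded mRNA kit (TruSeq) after enrichment for poly(A) RNA. The authors deposited per-transcript tables with estimated counts and TPM. The submitters' notes name FastQC 0.10.0, STAR 2.7.8a, featureCounts and GRCm39, while the program that made the estimates and its use of strand are not given in the sources used here. Of the transcripts 98.96% matched the GENCODE annotation. The rest held 0.677% to 0.712% of the reads and were left out. Estimated counts were summed per gene and rounded to whole numbers. Depth was 25746096 to 38435850 reads per library, and no intervals for single counts were computed.

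The 15360 genes that reached 1 CPM in 2 or more libraries were fitted together with edgeR 4.0.16 (R 4.3.3; TMM scaling, quasi-likelihood test, all 3 groups in 1 fit), with Benjamini-Hochberg adjustment over all of them at 0.05. CPM in the text are TMM-scaled, except the means that set the limit of the set and the levels given for genes below it, which are plain. SEs are the absolute log2 fold change divided by the square root of F. The fit was also run on counts simulated from its own estimates of level and spread, and no result here rests on that run. DESeq2 1.42.0 and the settings listed under the processing part were alternatives. Shared sequence was counted as stretches of 31 bases in GENCODE transcripts, on either strand. Main transcripts differ in length between files and annotation by over 10% for 16 of 95 members.

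The members and the gene lists were chosen with earlier results of these data known. Named with values were the 10 conventionally named members of highest mean CPM and all conventionally named members past the threshold. Of the others, the 8, 5 and 5 of lowest adjusted p in the comparisons of 100 ng/ml and 30 ng/ml with unstimulated and between the doses were named, if past it. The members of the lists, the genes next to the limit and the coding neighbours were named too. Replicate numbers were not used as pairs.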

Additional observations from a re-analysis of the deposited data

Results flagged for a closer look

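In groups of 5 cultures, a gap test (Dixon, 0.71 at the 95% level) marked a single culture in 21 of 285 groups tested over the 95 members, where chance marks about 1 in 20. The values are in CPM, each with that of the nearest culture of its group. In 30 ng/ml replicate 5 the marks were on *Firre* (104, next 84.0), *Erdr1y* (27.0, next 21.0), *Gm47578* (33.2, next 16.8), *Fzd10os* (19.9, next 17.9), *D130058E05Rik* (17.4, next 15.2), *Kcnq1ot1* (24.7, next 12.7) and *Gm48765* (22.9, next 11.7), all highest of the group. In 100 ng/ml replicate 2 they were on *Xist* (511, next 325), *Brip1os* (87.5, next 81.9), *Gm33989* (49.4, next 39.1), *Snhg14* (22.9, next 13.4) and *Cdr1os* (21.4, next 14.3), also as the highest. Both cultures were the highest of their groups in *Malat1* as well, and held 7 and 5 of the marks. Unstimulated replicate 2 was highest in *2010320M18Rik* (18.9, next 17.1), *2610035D17Rik* (15.4, next 13.0) and *Gm4876* (12.4, next 10.9), and unstimulated replicate 4 in *H19* (99.3, next 59.2). With 30 ng/ml, replicate 1 was highest in *4933431E20Rik* (41.8, next 37.2) and replicate 3 in *Pvt1* (12.6, next 11.9), while replicate 2 was lowest in *Rab10os* (15.5, next 18.7) and *Gm19412* (9.27, next 10.8). In 100 ng/ml replicate 4 *A830082K12Rik* was lowest (9.17, next 10.4).

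The response to the doses differed by the test of the difference itself (edgeR, 100 against 30 ng/ml) for *Gm43305* (log2 0.38), *Gm42031* (0.54) and *Gm48275* (0.59). Against unstimulated cultures all 3 passed the test with 100 ng/ml and did not with 30 ng/ml.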

How the results depend on the processing

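Of 28 calls of named genes, 17 were kept under every alternative that gave a value and none changed sign. With lncRNA transcripts only, *Gm43305* had no value and 94 members were tested. With 100 ng/ml, 17 members changed, 10 when only the groups compared entered the fit, 27 of 197 with a limit of 5 CPM, 8 of 42 with a limit of 20 CPM, and 8 of the 46 sharing at most 10% of stretches. Leaving out 1 culture gave 12 to 23. With 30 ng/ml it was 2 of 42 with a limit of 20 CPM and 5 to 12 on leaving out 1 culture, with 5 without unstimulated replicate 3 or 4. Between the doses DESeq2 called 6, and among those sharing at most 10% of stretches 0 changed, with 3 to 4 on leaving out 1 culture. The cause was not tested. The members' share of reads without *Malat1* was 0.456%, 0.462% and 0.481% in the unstimulated, 30 and 100 ng/ml groups.

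The replicate numbers did not pair the cultures: correlations of same-numbered deviations ran from −0.183 to 0.264 and 5 of 15 cultures matched their own number best. With the numbers as a block, 14, 7 and 3 members changed.

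Leaving out 1 culture ended the calls of *2810013P06Rik* (unstimulated replicate 1 or 100 ng/ml replicate 3), *Gm20186* (unstimulated replicate 2, 3 or 5 or 100 ng/ml replicate 3), *Gm16006* (replicates 2, 3 or 4 of either group), *AU020206* in 7 of 15 fits, *AI506816* in 9, *Gm49980* in 7 and *3300002A11Rik* in 12. The call of *Gm48275* between the doses was lost without the 3 cultures highest in *Malat1* (0.44).

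Uncalled values near 0 changed sign. With library size alone *Xist* at 30 ng/ml was 0.013, and *Norad* and *Brip1os* at 100 ng/ml were 0.00676 and 0.00706. Those of *Norad* were 0.00545 with no filter, 0.00157 with at least 10 counts in every sample, 0.00136 with only the groups compared and 0.00125 with lncRNA transcripts only. Those of *Brip1os* were 0.00599, 0.00189, 0.00169 and 0.00157. Leaving out 1 culture at 100 ng/ml gave −0.10 to 0.28 for *Malat1*, −0.046 to 0.025 for *Norad*, −0.092 to 0.077 for *Meg3* and −0.023 to 0.013 for *Brip1os*. At 30 ng/ml it gave −0.17 to 0.30 for *Malat1*, −0.11 to 0.087 for *Xist*, −0.00142 to 0.039 for *Norad*, −0.044 to 0.19 for *Neat1*, −0.17 to 0.041 for *Meg3* and −0.00852 to 0.020 for *Brip1os*.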
